A study of Canis lupus familiaris with 4 samples.

Results

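miR-205 and miR-203 are microRNAs of basal and stratified epithelia that lie outside the miR-200 family. They correspond to the rows cfa-mir-205 and cfa-mir-203 of the deposited table, 2 of its 673 rows and 2 of its 508 rows of known miRNAs. The pair was chosen by its names together with its measured levels in the 2 cell lines, so the contrast between the cell lines is given for both miRNAs as a description. The table holds small RNA sequencing of extracellular vesicles (EVs) from 2 canine mammary gland adenocarcinoma cell lines of the same dog, with 2 libraries per line. CHMp came from the primary tumor, and its EVs are called pTDEs, whereas CHMm came from a metastasis, and its EVs are called mTDEs. The labels name no drug or genetic change. The study also made luciferase-expressing cells of both lines, and the sources used here do not say whether these gave the EVs. The EVs of both lines came from cells kept without serum, isolated by ultrafiltration and ultracentrifugation. Each group is thus a single cell line of 1 animal. The study calls the libraries biological replicates, the sources used here do not say whether they were separate cultures, and p-values measure only the spread between these libraries.

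As background, miR-205 is produced in the basal layer of skin, prostate and mammary epithelium, and it represses ZEB1 and ZEB2, transcription factors that switch off epithelial genes, a task it shares with the miR-200 family. miR-203 rises when keratinocytes leave the basal layer of the epidermis, and it then represses p63, the transcription factor that maintains epithelial progenitors. Both are commonly low in cells that have gone through an epithelial-mesenchymal transition (EMT). An EV library measures what cells release. A low level can come from fewer vesicles that carry a miRNA, from fewer copies per vesicle or from a larger share taken by other miRNAs. Which of these applied was not tested. The differences of the pair relative to the median of all rows tested are given below.

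Each deposited whole number is close to the log2 of a level in CPM (counts scaled to a library total of 1000000) plus 1, times a factor particular to its library. Levels below are the CPM obtained by undoing this. The form was inferred from the values: the study describes its values as CPM, and the deposited numbers do total 999989 to 1000010 in a library. Both readings were held to 1 standard over the 35 to 62 distinct low values of a library (those under 20 CPM after the conversion), namely the largest step of which all of them were multiples within rounding. After the conversion this step, taken as the worth of 1 read, was 0.159 to 0.429 CPM, and rounding would let through 7.87% to 14.9% of evenly spread values. With the deposited numbers as plain CPM the step was 1.5 to 1.83, at which rounding lets through 85.3% to 95.6%. The range of steps tried differed between the readings, and for plain CPM it held only steps above 1. Whole numbers meet a step of that size almost whatever they are, so this result cannot decide against plain CPM. The size of each difference rests on this reading. Depth, in M reads (1 M is 1000000), was 6.3 for pTDE replicate 1, 5.05 for pTDE replicate 2, 3.46 for mTDE replicate 1 and 2.33 for mTDE replicate 2. For a miRNA listed at 0 the limit was set at 3 reads, or 0.476 to 1.29 CPM depending on the library. The most abundant miRNA, miR-21, took from 22.5% to 37.8% of a library. Intervals on a level are 95% Wilson intervals and, like the 3-read limits, cover counting error only, because amplified reads are not independent molecules.

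miR-205 was abundant in mTDEs and scarce in pTDEs. It was at 20.3 CPM (interval 17.1 to 24.2) in pTDE replicate 1 and at 30.8 CPM (26.4 to 36.1) in pTDE replicate 2, from 128 and 156 reads. In mTDE replicate 1 it was at 5041 CPM (4967 to 5117), and in mTDE replicate 2 at 3273 CPM (3201 to 3347). Both mTDE libraries lay far above both pTDE libraries, and within each cell line the replicates lay farther apart than their counting intervals. The mean was 25.6 ± 7.43 CPM (SD, n = 2) in pTDEs and 4157 ± 1250 CPM (SD, n = 2) in mTDEs, a ratio of the means of 162. The lower mTDE library was still 106 times the higher pTDE library. On the log2(CPM + 1) scale the difference, mTDEs minus pTDEs, was 7.28, and over the 4 pairs of a pTDE and an mTDE library it ranged from 6.68 to 7.88.

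miR-203 differed in the same direction, by less, and with a wider spread. It was at 38.5 CPM (33.9 to 43.6) in pTDE replicate 1 and at 66.9 CPM (60.1 to 74.4) in pTDE replicate 2, from 242 and 338 reads. It was at 950.2 CPM (918.3 to 983.2) in mTDE replicate 1 and at 2535 CPM (2471 to 2601) in mTDE replicate 2. The cell lines again did not overlap, and mTDE replicate 2 was 2.67 times mTDE replicate 1, the widest gap between replicates of either miRNA. Its mean was 52.7 ± 20.1 CPM (SD, n = 2) in pTDEs and 1743 ± 1121 CPM (SD, n = 2) in mTDEs, a ratio of 33.1. The lower mTDE library was 14.2 times the higher pTDE library. The difference on the log2(CPM + 1) scale was 4.91, with a range of 3.81 to 6.01 over the 4 pairs of libraries.

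**Figure D1:**
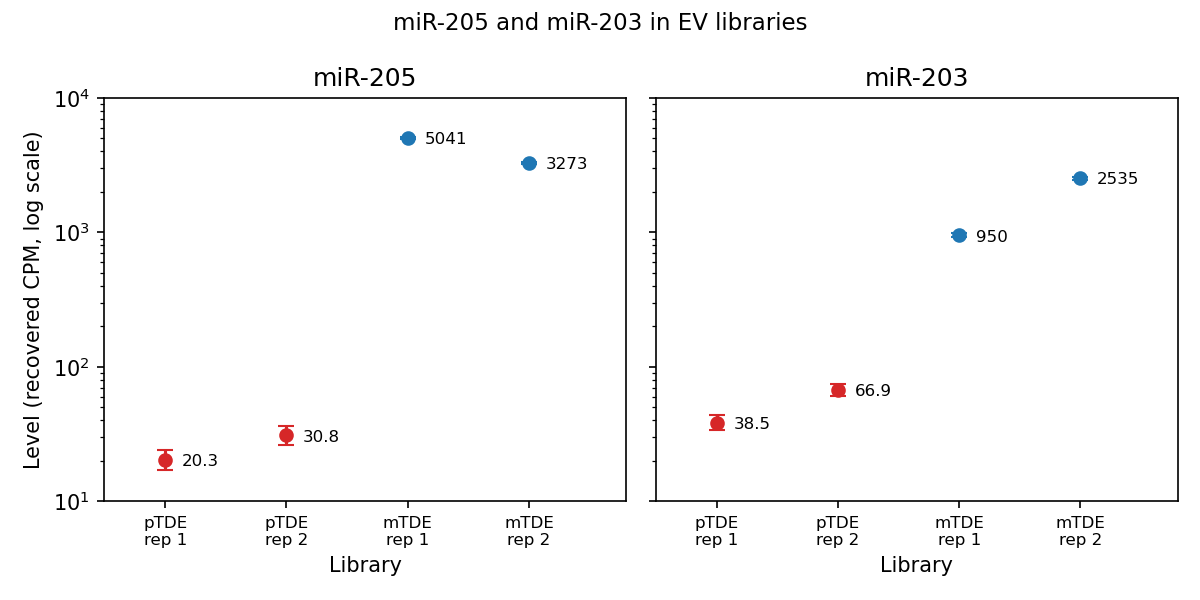
Level of miR-205 (left) and miR-203 (right) in each library, in recovered CPM on a log axis. Points are single libraries, red for pTDEs and blue for mTDEs, and bars are 95% Wilson counting intervals, which are smaller than most points. For miR-205 the mTDE libraries sit at 5041 and 3273 CPM against 20.3 and 30.8 CPM in pTDEs, and for miR-203 at 950.2 and 2535 CPM against 38.5 and 66.9 CPM.

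By rank among the detected miRNAs, both were in higher places in mTDEs than in pTDEs. miR-205 ranked 194 of 342 rows above 0 in pTDE replicate 1 and 170 of 347 in pTDE replicate 2. In mTDEs it ranked 29 of 306 in replicate 1 and 47 of 332 in replicate 2. miR-203 ranked 169 and 139 in the pTDE libraries, but 69 and 48 in the mTDE libraries, replicate 1 first. Even in mTDEs the pair made up a small part of the library, with miR-205 at 0.504% and 0.327% of the CPM and miR-203 at 0.095% and 0.254% in replicates 1 and 2. No other row of the table had the same values as either miRNA in all libraries.

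The order of the pair was opposite in the cell lines. In pTDEs miR-203 was the higher, at 1.89 times miR-205 in replicate 1 and 2.17 times in replicate 2. In mTDEs miR-205 was the higher, at 5.31 times miR-203 in replicate 1 and 1.29 times in replicate 2. Such a ratio is formed inside a library, so a rescaling of its CPM, as by size factors, drops out of it. A loss that differs between the 2 miRNAs, as through the window of read lengths kept by the authors, does not drop out. Such a loss was not tested, so the order within a library is one of reads. On the log2(CPM + 1) scale the ratio of miR-205 to miR-203 was -0.99 ± 0.15 (SD, n = 2) in pTDEs and 1.39 ± 1.44 (SD, n = 2) in mTDEs. The pTDE libraries thus had nearly the same ratio, whereas in mTDEs its size rested on which library was taken, from 0.37 with replicate 2 alone to 2.41 with replicate 1 alone.

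**Figure D2:**
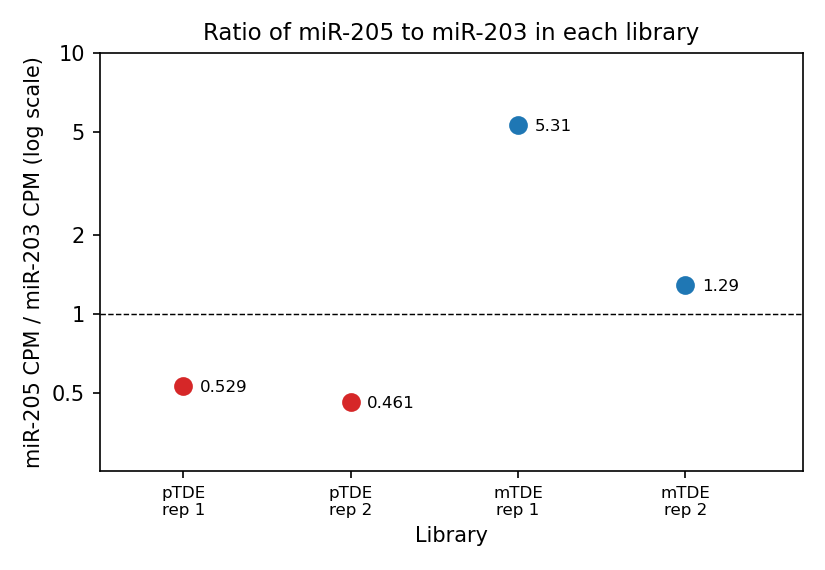
Ratio of the CPM of miR-205 to that of miR-203 in each library, on a log axis, with the dashed line at a ratio of 1. The pTDE libraries (red) lie close together below the line at 0.529 and 0.461, and the mTDE libraries (blue) lie above it at 5.31 and 1.29.

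The replicates of mTDEs disagreed in opposite directions for the pair. From replicate 1 to replicate 2 the log2 CPM of miR-205 differed by -0.62 and that of miR-203 by 1.42. Over the 240 rows with at least 10 reads in both mTDE libraries, the median of this difference was 0.62 and the median of its size was 0.88. A gap at least as large as that of miR-205 was found in 61.3% of these rows, and as large as that of miR-203 in 33.3%. These shares count size alone, without regard to direction. miR-203 moved with the median of these rows, whereas miR-205 moved against it. Within pTDEs both miRNAs were higher in replicate 2, by 0.60 and 0.80, against a median size of 0.64 over 267 rows. Scaling by median-ratio size factors narrowed the gap of miR-203 between the mTDE libraries from 2.67-fold to 1.70-fold and widened that of miR-205 from 1.54-fold to 2.41-fold. With those factors the lower mTDE library was 73.4 times the higher pTDE library for miR-205 and 15.4 times for miR-203.

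The form of the deposited numbers hides most of these differences. The deposited values of miR-205 were 2187 and 2463 for pTDEs, with 5996 and 4976 for mTDEs, a ratio of the means of 2.36. Those of miR-203 were 2626 and 3002 for pTDEs, with 4823 and 4819 for mTDEs, a ratio of 1.71. The last pair differed by 4, yet it stood for 950.2 and 2535 CPM, because the library factor was 487.5 in mTDE replicate 1 and 426.1 in mTDE replicate 2. At these levels the rounding of the deposited numbers moved a recovered CPM by at most 0.0814%.

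**Figure D3:**
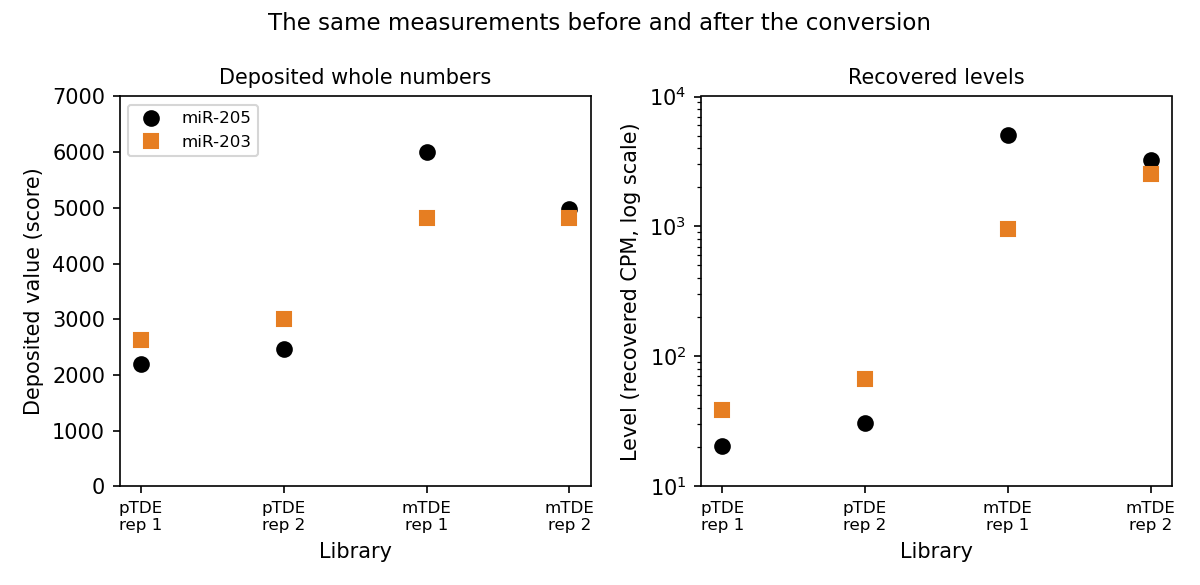
The deposited whole numbers (left, linear axis from 0) and the recovered CPM (right, log axis) of miR-205 (black circles) and miR-203 (orange squares) in each library. The deposited values of miR-203 in mTDEs, 4823 and 4819, are level in the left panel and become 950.2 and 2535 CPM in the right panel.

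Tests covered the 326 rows with reads in each library of pTDEs, of mTDEs or of both. Among them miR-205 ranked 6 and miR-203 ranked 10 by their difference on the log2(CPM + 1) scale. Of the rows above them, 3 and 4 were at 0 in both pTDE libraries, so that these ranks depend on the pseudocount: they were 9 and 15 with 0.1 CPM and 4 and 8 with 5 CPM. The median difference over these rows was 0.03 with scaling to the library total and -0.22 with median-ratio size factors. Relative to that median, miR-205 differed by 7.26 and 7.27 under the 2 scalings and miR-203 by 4.88 and 4.89. In 89 of the 326 rows (27.3%) both mTDE libraries were above both pTDE libraries, as for miR-205 and miR-203, and in 85 (26.1%) the reverse held. limma with Benjamini-Hochberg adjustment over the 326 rows called 6 rows higher in mTDEs (1.84%) and 0 lower (0%) at an adjusted p-value under 0.05. miR-205 was one of the 6 and miR-203 was not. The pair was chosen on this contrast, so this is no test of it and nothing is read from it, and the calls for the pair moved with the settings. At an unadjusted p-value under 0.05 limma had 31 rows higher and 33 lower in mTDEs. With median-ratio size factors the calls were 9 higher and 5 lower, and with limma voom on the recovered reads 11 higher and 5 lower. The 5 lower calls of each were at 0 in both mTDE libraries, so that they entered the test through pTDEs alone.

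**Figure D4:**
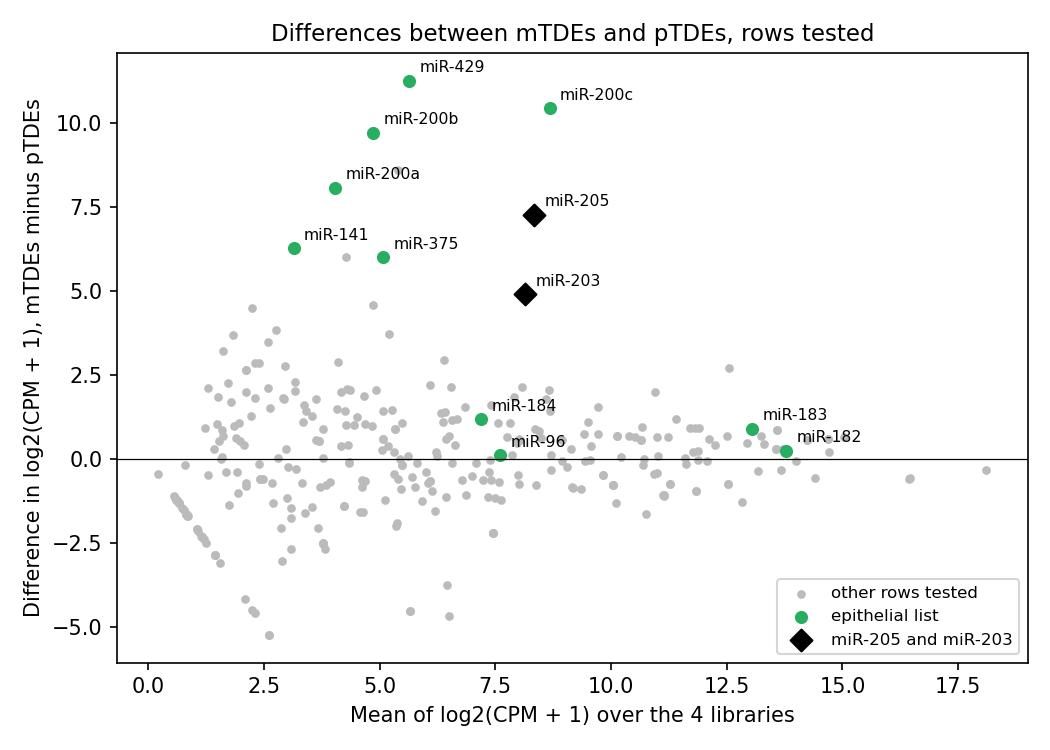
Difference in log2(CPM + 1), mTDEs minus pTDEs, against the mean of log2(CPM + 1) over the 4 libraries, for the 326 rows tested. Black diamonds mark miR-205 (7.28) and miR-203 (4.91), green points the epithelial list and gray points the other rows, most of which lie near a difference of 0 at higher levels.

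The pair was then set beside 11 other miRNAs of epithelial cells, namely the miR-200 family (miR-200a, miR-200b, miR-200c, miR-141 and miR-429), which represses ZEB1 and ZEB2, the miR-183, miR-96 and miR-182 cluster of sensory and other epithelia, miR-375 of secretory epithelia, miR-31 of keratinocytes and miR-184 of the cornea. This list was made with earlier results of these data known. All 11 were in the table and 10 were tested. Of these 10, limma called 5 higher in mTDEs and 0 lower, where 1.84% and 0% of all rows were called. The 6 rows behind the 1.84% were these 5, all of the miR-200 family, and miR-205. However, 4 of the 5 (miR-200a, miR-200b, miR-141 and miR-429) were at 0 in both pTDE libraries and entered the test through mTDEs alone, which fixed their direction, so the counts over the 10 describe the list and support nothing. Of the other 6, limma called 1 (miR-200c, adjusted p = 0.0084), and of the 282 rows that had reads in both cell lines it called 2. All 6 had a positive difference, as did 159 of the 282. The median difference of the 6 was 1.04, against 0.24 over the 282. Among the 6, miR-183, miR-96 and miR-182 are a single cluster, so the 6 are not independent of each other. Over all 10 it was 6.15 with the pseudocount of 1 CPM and 5.84 with the 4 set to the 3-read limit in pTDEs. The number called rested on every library: it was 2 without pTDE replicate 1, 1 without pTDE replicate 2 and 0 without either mTDE library.

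The pair differed from most of the miR-200 family in its level in pTDEs. miR-200a, miR-200b, miR-141 and miR-429 were listed at 0 in both pTDE libraries, and miR-200c was at 15.1 and 6.33 CPM there, below miR-205 and miR-203 in each library. By their mean in mTDEs the 13 miRNAs ran from miR-182, miR-200c and miR-183, at means of 15423, 15336 and 11848 CPM, to miR-205 in the fourth place. miR-205 overlapped in mTDEs with miR-429, next in order at 1747 and 3493 CPM, and miR-429 overlapped with miR-203, in the sixth place. miR-203 in turn overlapped with miR-200b, at 1017 and 705.2 CPM in replicates 1 and 2. By their mean in pTDEs the order was miR-182, miR-183, miR-184, miR-96, miR-203 and miR-205. The place of miR-184 holds for the mean alone, since at 25.4 CPM in replicate 1 it was below miR-96 and miR-203 there. In pTDEs miR-203 and miR-205 did not overlap with each other.

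miR-375 had a pattern like that of the pair at lower levels. Its level was 1.27 and 6.74 CPM in pTDEs, against 349.1 and 210.3 CPM in mTDEs, a ratio of the means of 69.9, with a limma adjusted p-value of 0.062. The miR-183, miR-96 and miR-182 cluster did not share it. miR-182 was at 9270 and 17976 CPM in pTDEs and 13976 and 16871 CPM in mTDEs, and miR-96 at 199.1 and 172.2 CPM in pTDEs and 168.0 and 242.4 CPM in mTDEs, so that the cell lines overlapped for both. miR-183 was at 4735 and 8149 CPM in pTDEs and 13976 and 9720 CPM in mTDEs, without overlap, with a difference of 0.91 on the log2(CPM + 1) scale (limma adjusted p = 0.33). miR-184 varied more between replicates than between cell lines, from 25.4 to 355.0 CPM in pTDEs and from 69.4 to 682.6 CPM in mTDEs. miR-31 was listed at 0 in pTDE replicate 2 and mTDE replicate 1, was at 0.949 CPM in pTDE replicate 1 and at 1.29 CPM in mTDE replicate 2, and was not tested.

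**Figure D5:**
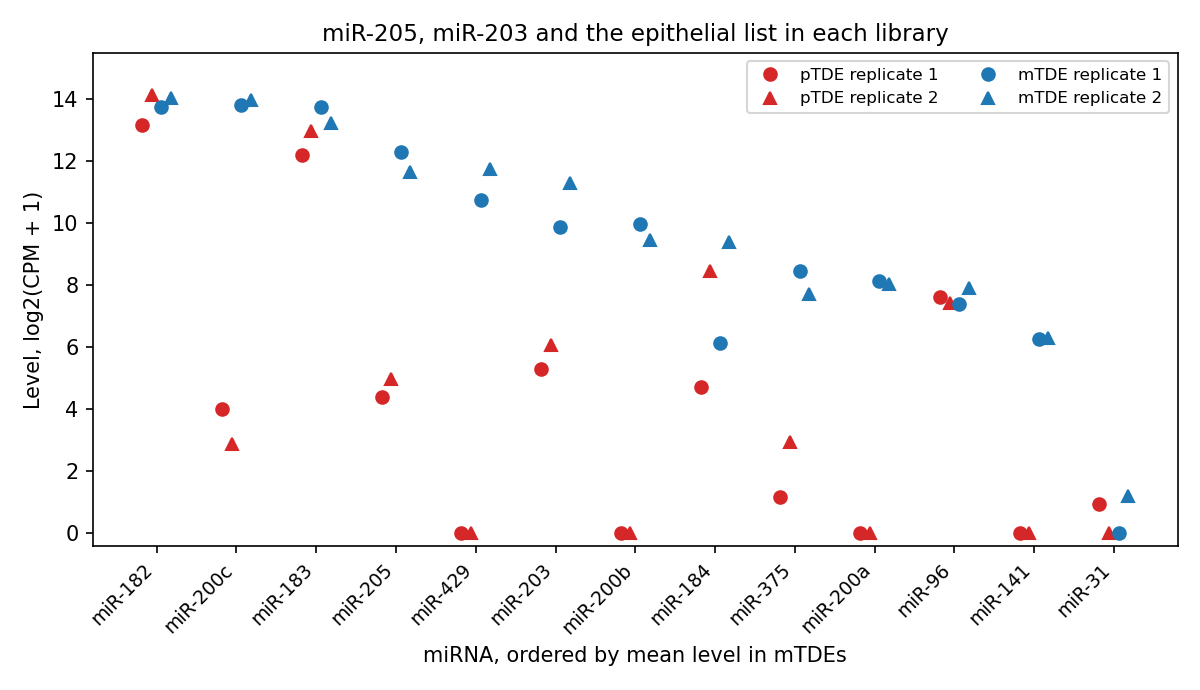
Level on the log2(CPM + 1) scale of miR-205, miR-203 and the 11 miRNAs of the epithelial list in each library, ordered by their mean in mTDEs. Red marks pTDEs and blue mTDEs, circles replicate 1 and triangles replicate 2. miR-205 and miR-203 lie between 4.42 and 6.09 in pTDEs, above miR-200c and well above miR-200a, miR-200b, miR-141 and miR-429, which are at 0.

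Markers of other cells were listed beside the pair. Of 4 miRNAs of mesenchymal cells (miR-143, miR-145, miR-199 and miR-214), all tested, limma called 0 in either direction, against 1.84% higher and 0% lower over all rows, with 0 at an unadjusted p-value under 0.05 and 0 by limma voom. Their median difference was -0.25, against 0.03 over all rows. The differences were -1.14 for miR-143, -2.20 for miR-199, 0.99 for miR-145 and 0.64 for miR-214. Thus 2 of the 4 were positive, as were 166 of the 326 rows. miR-199 was at 481.5 and 286.2 CPM in pTDEs and 35.0 and 182.4 CPM in mTDEs, without overlap, as for 26.1% of all rows in that direction, with a limma adjusted p-value of 0.29. The counting could not tell apart the 3 rows of miR-199, which had the same values and count once. The summed level of the 4 was from 589.4 to 926.1 CPM in pTDEs and from 81.6 to 762.0 CPM in mTDEs. In the cells themselves, the study reported more mRNA of mesenchymal markers in CHMp than in CHMm by qRT-PCR. That is a measure of mRNA in cells, not of miRNAs in EVs.

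Of 7 miRNAs of blood cells and liver, 6 were tested and limma called 0, against 1.84% higher and 0% lower over all rows, with 1 at an unadjusted p-value under 0.05 (miR-122, of hepatocytes, which was higher in mTDEs, as were 31 of all 326 rows) and 0 by limma voom. All 6 had a positive difference, as did 166 of the 326 rows, with a median of 1.44 against 0.03, and 3 (miR-486, by its 3p row, miR-223 and miR-122) had both mTDE libraries above both pTDE libraries, as did 27.3% of all rows. Their summed level was 418.5 CPM in pTDE replicate 1, 991.8 CPM in pTDE replicate 2, 1070 CPM in mTDE replicate 1 and 3588 CPM in mTDE replicate 2. The erythroid miR-451 was highest in mTDE replicate 2, at 1423 CPM, and miR-144, its neighbor in the genome, was listed at 0 in all libraries. miR-203 was highest in the library with the highest sum, whereas miR-205 was higher in mTDE replicate 1. The part of these miRNAs in the levels of the pair was not tested.

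To find the miRNAs most like each member, profiles of log2(CPM + 1) over the 4 libraries were centered on their own mean and compared by Euclidean distance among the 326 rows. This is a description over 4 libraries in 2 groups, and for a miRNA listed at 0 in pTDEs the distance depends on the pseudocount. The 5 nearest to miR-205 were miR-200a (distance 0.97), miR-141 (1.17), miR-375 (1.52), miR-95 (2.38) and miR-200b (2.48). The 5 nearest to miR-203 were miR-147 (1.15), miR-34a (1.24), miR-676 (1.35), miR-141 (1.78) and miR-375 (2.01). Only miR-141 and miR-375 were on both lists.

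The neighbors of miR-203 were mostly at low levels. miR-34a, a target of p53, was at 7.94 and 10.7 CPM in pTDEs and 90.6 and 196.6 CPM in mTDEs, and like miR-203 it was higher in mTDE replicate 2. miR-147 was listed at 0 in pTDEs and was at 20.5 and 22.3 CPM in mTDEs. miR-676 was likewise listed at 0 in pTDEs and was at 6.36 and 21.5 CPM in mTDEs. Near miR-205, miR-95 was listed at 0 in pTDE replicate 1 and was at 3.56 CPM in pTDE replicate 2 and at 475.6 and 1491 CPM in mTDEs. The pair itself was 2.78 apart, which placed miR-203 in position 7 around miR-205 and miR-205 in position 17 around miR-203.

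The genes of the pair are not neighbors. On the UU_Cfam_GSD_1.0 assembly, as annotated by RefSeq, MIR205 and MIR203 lie on different chromosomes, and neither has another miRNA gene within 10 kb. MIR205 lies between lncRNA genes, with PLXNA2 and CAMK1G as the nearest protein-coding genes. MIR203 lies within the span of ASPG, with TDRD9 and KIF26A on its sides. The files use the build CanFam3.1, so no coordinates are printed.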

How the data were processed

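Small RNA of EVs from CHMp and CHMm was measured in 2 libraries per line, which were grouped by sample title. The authors used cutadapt to remove adapters and keep a window of read lengths, looked at the reads with FastQC, joined forward and reverse reads into 1 set per sample, and quantified miRNAs with miRDeep2 against CanFam3.1; tool versions are not given in the sources used here, nor is which library ran on which of the 2 instruments. A length window can lose miRNAs near its limits, which was not tested for the pair. The values deposited for each library were handled as a score, inferred to be log2(CPM + 1) times a library factor. The deposited columns with the authors' log2 fold changes and log2 CPM, likelihood ratio score, and p-values were not used.

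CPM were recovered as 2 to the power (value/s), minus 1, with s solved so that a library totals 1000000. The worth of 1 read was the largest step of which all CPM under 20 were multiples within rounding of the deposited numbers and of CPM with 2 decimals. limma 3.58.1 (R 4.3.3; eBayes with trend, prior degrees of freedom 2.4) was fitted to log2(CPM + 1) of the 326 rows above 0 in both libraries of a line, with Benjamini-Hochberg adjustment; edgeR, which the authors used, was not run. Differences are mTDEs minus pTDEs. Python 3.11.15, numpy 2.4.6, pandas 2.3.3 and scipy 1.17.1 were used otherwise. The conversion was tested on data simulated in the inferred form, and the fit on simulated reads with a spread and a change set in advance. Neither tests whether the deposited numbers have that form, nor how many changes in these data the fit would find. The pair and the lists were chosen with earlier results of these data known. Named are the pair, the epithelial list, the 5 nearest profiles of each, and miR-21. miR-143, miR-145, miR-199, miR-214, miR-122, miR-451, miR-144, miR-486 and miR-223 fall outside this rule and were named after their values were seen. Alternatives were pseudocounts of 0.1 and 5 CPM, reading the deposited values as plain CPM, median-ratio size factors (231 rows above 0 in all libraries), other row filters, no trend, limma voom, a replicate block and each library left out. Depth was 2.33 to 6.3 M reads per library (1 M is 1000000).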

Additional observations from a re-analysis of the deposited data

How the results depend on the processing

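miR-205 and miR-203 were higher in mTDEs with each pseudocount, with median-ratio size factors, with the deposited values read as CPM and with each library left out. The log2 differences of 7.28 and 4.91 became 1.23 and 0.78, and the log2 ratio of miR-205 to miR-203 moved from -0.99 to -0.27 in pTDEs and, in mTDEs, fell to 0.18 from 1.39, when the deposited values were taken as CPM. With other pseudocounts and median-ratio size factors the differences stayed between 7.05 and 7.34 and between 4.67 and 4.93. With a library left out they ranged from 6.97 to 7.60 and from 4.20 to 5.61, and the ratio from 0.37 to 2.41 in mTDEs and from -1.09 to -0.89 in pTDEs.

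The 6 miRNAs called higher in mTDEs became 11 under each of a 0.1 CPM pseudocount, the deposited values read as CPM, and voom. The 0 called lower became 28, 39 and 5 in the same order, 5 with median-ratio size factors and 4 without a trend, and all of these but 2 of the 39 were at 0 in both mTDE libraries. With a library left out (the lone library assumed to vary like the other line), 0 to 4 were called higher, 0 to 37 lower, and 0 to 2 of the epithelial list higher. The 37 were reached on leaving out pTDE replicate 1 or pTDE replicate 2, and each time all 37 were at 0 in both mTDE libraries. Otherwise 4 to 6 of that list were called: miR-141 was lost under the 5 CPM pseudocount, under the replicate block and when any row above 0 somewhere was tested, and miR-375 was added under the 0.1 CPM pseudocount, a minimum mean of 10 CPM, or no trend. None of the mesenchymal or blood and liver miRNAs was called under any alternative.

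Replicate numbers are shared by the lines, and same-numbered libraries deviated together only weakly (correlation 0.15 over 326 rows). The samples share only a number. With the replicate block, 7 miRNAs were called higher in mTDEs, 0 lower and 4 of the epithelial list. The lowest count of the pair was 128 reads, against a limit of 3 reads.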

Other observations

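The summed level of miR-205 and miR-203 was 5992 CPM in mTDE replicate 1 and 5808 CPM in mTDE replicate 2, although miR-205 made up 84.1% of the sum in the first and 56.4% in the second. In pTDEs the sum was 58.8 and 97.8 CPM, with miR-205 at 34.6% and 31.6%. This sum was looked at after the values were seen.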
